A study of Homo sapiens with 12 samples.

Results

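Tumour cells display surface proteins that immune cells read as signals to stop or to attack, and 8 genes for such proteins were examined here. They were CD274 and PDCD1LG2, the ligands of the receptor PD-1, CD276, CD47, PVR, and the NKG2D ligands MICA, MICB and ULBP2. Each was taken by its gene symbol from count tables that list 60106 genes, and all 8 were found, with 1 row each. The study silenced FOXA1, a forkhead transcription factor that binds and opens compacted chromatin, in the PC3 and VCaP lines of human prostate cancer, and sequenced RNA in 4 groups of 3 replicates. The PC3 groups received 20 nM of non-targeting siRNA (NSI) or of siRNA against FOXA1 (siFOXA1), grew in RPMI-1640, and were sequenced as polyA RNA with the TruSeq stranded mRNA kit. The VCaP groups received 40 nM of the same 2 kinds of siRNA, grew in DMEM, and were sequenced with the TruSeq total RNA kit. All 4 groups, the controls included, were transfected with RNAiMax and lysed after 72 hours. The line, the siRNA dose, the medium, the kit and the use of strand in counting changed together, so their parts in a difference between the lines cannot be told apart. No label says that the replicates were separate cultures, so the p-values measure the spread between libraries, which may be technical. How many different siRNAs were aimed at FOXA1 is not stated in the labels.

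T cells carry PD-1, and engagement of PD-1 by its ligands damps T cell activation. Interferon raises transcription of CD274 through JAK kinases, STAT proteins and the factor IRF1, and this route lets tumour cells answer T cell attack. Natural killer (NK) cells carry NKG2D, which recognises stress-induced relatives of MHC class I molecules and triggers killing, while CD47 on a target cell tells macrophages not to engulf it.

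FOXA1 fell in every siFOXA1 library. In PC3 its level was 296, 247 and 261 CPM (counts scaled by library size) in controls and 165, 184 and 164 CPM after silencing, so 63.8% of the NSI mean remained (log2 fold change -0.65, SE 0.10, adjusted p = 0.00222). In VCaP its level was 458, 468 and 544 CPM with NSI and 85.2, 73.6 and 83.1 CPM with siFOXA1, so 16.5% remained (log2 fold change -2.60, SE 0.09, adjusted p = 1.84e-07). The knockdown was deeper in VCaP, with a difference of -1.93 on the log2 scale (SE 0.15, adjusted p = 3.12e-07). An exact permutation test of 3 libraries against 3 gave p = 0.1 in each line, two-sided, which is the smallest p this design allows. PC3 libraries held 123140099 to 188226483 counts and VCaP libraries 48187047 to 59839211. Of the line markers, ERG was at means of 225 to 238 CPM in VCaP and below 1 CPM in PC3, and VIM showed the reverse, with 740 to 829 CPM in PC3.

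Adjusted p-values here come from edgeR's quasi-likelihood test with Benjamini-Hochberg adjustment over all genes tested, and a gene was called when its adjusted p was under 0.05. CPM values were scaled within each line on its own, so levels set across the lines compare separately normalized values. In bulk RNA, fewer cells that express a gene and less of its RNA per cell cannot be told apart.

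In PC3, 5 of the 8 genes rose and none fell by edgeR: CD274, PDCD1LG2, CD47, MICB and ULBP2. Of these, PDCD1LG2 passed the filter on low counts only through its siFOXA1 libraries. At an unadjusted p under 0.05, 2 of the 8 were lower, CD276 and PVR, and DESeq2 called 1 lower, PVR. The background share of all tested genes called was 27.0% in PC3, with 15.0% higher and 12.1% lower. In VCaP, 7 of the 8 genes could be tested, of which CD274 and CD47 rose and CD276, PVR and MICB fell, against a background share of 45.8%, with 22.5% higher and 23.3% lower. PDCD1LG2 had no count in any VCaP library and was under the filter on low counts. The median log2 fold change of the tested members was 0.58 in PC3, where that of all genes was 0.02, and -0.31 in VCaP, where that of all genes was 0.02. CD274 and MICB were the 2 of 7 genes whose response differed between the lines by the interaction test, both with the smaller or opposite effect in VCaP, against a background share of 22.2%, with 11.3% higher and 11.0% lower. The PC3 background depended on single libraries: 7149 genes were called in all, but 3945 without siFOXA1 replicate 1 and 4602 without NSI replicate 3. With library size alone as the scaling, the interaction calls split into 2643 higher and 3880 lower, in place of 3427 and 3333.

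**Figure D1:**
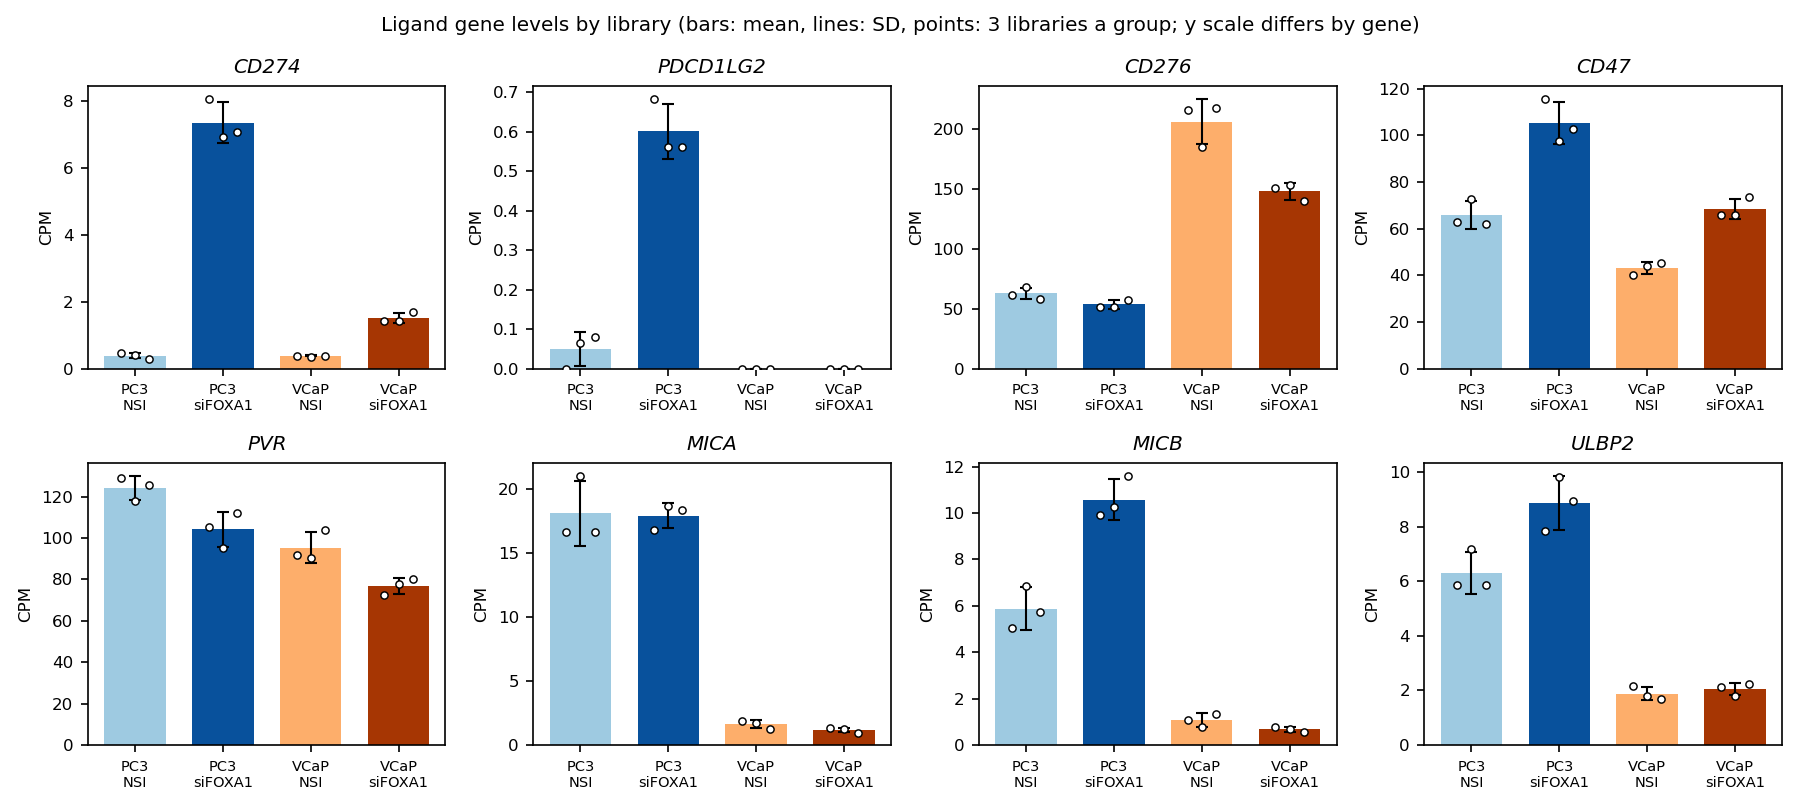
Level of each ligand gene in CPM, on a linear axis from 0 that differs by gene, in the NSI and siFOXA1 groups of PC3 and VCaP; points are libraries, bars are means of 3 libraries and lines are SDs. CD274 has means of 0.384 and 7.35 CPM in PC3 and of 0.375 and 1.51 CPM in VCaP, and PDCD1LG2 has no count in VCaP.

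CD274 encodes PD-L1, the main ligand of PD-1 on tumour cells, and it showed the largest rise of the 8 genes in each line. It lies on chromosome 9 at 5450503 to 5470566, plus strand, in GRCh37 (ENSG00000120217.13_2). The 250 bases before its start are shown because they hold letters that match binding motifs of interferon-activated factors. They are read from the RefSeq promoter table of GRCh38.p14 at chr9:5450292-5450541, plus strand, with matches to the interferon-stimulated response element core (GAAA, any 2 bases, GAAA) and to the interferon-gamma activated site TTCNNNGAA in capitals.
CD274: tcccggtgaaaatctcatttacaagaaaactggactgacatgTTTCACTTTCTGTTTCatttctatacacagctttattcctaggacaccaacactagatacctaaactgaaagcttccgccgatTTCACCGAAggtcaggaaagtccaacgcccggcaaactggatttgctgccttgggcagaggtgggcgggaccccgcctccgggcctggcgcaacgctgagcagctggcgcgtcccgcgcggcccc
The first capital run holds 2 overlapping matches to the response element on the minus strand, at 208 to 199 and at 202 to 193 bases before the start. The second capital run is the activated site, at 125 to 117 bases before the start. Both strands were searched, and among 35116 RefSeq promoters of this length 3.02% hold the first motif and 6.57% the second. Of the 8 members, 7 were found in the promoter table by symbol, and CD274 was the one that held either motif. The forkhead letters TGTTTAC and TGTTTGC, which 2.98% and 3.23% of all promoters hold, and the heat shock element (GAA, any 2 bases, TTC, any 2 bases, GAA), which 0.441% hold, occurred in none of the windows of these 7 genes. The GC box GGGCGG, present in 42.6% of all promoters, occurred in the windows of CD274, CD276, CD47, MICA, MICB and ULBP2. A match is a description of the letters and does not show that a factor binds there.

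In PC3, CD274 stood at 0.463, 0.392 and 0.296 CPM in controls and at 8.04, 6.93 and 7.08 CPM after silencing. All 3 siFOXA1 libraries were far above all 3 controls, and the mean rose from 0.384 ± 0.0839 to 7.35 ± 0.603 CPM (SD, n = 3), a ratio of 19.2. The log2 fold change was 4.27 (SE 0.18, 95% interval 3.85 to 4.68, adjusted p = 2.41e-06), the 56th largest rise among 26435 genes tested. These means rest on 179 summed counts with NSI and 3409 with siFOXA1. The VCaP values rest on fewer counts, 60 summed with NSI and 232 with siFOXA1. In VCaP, CD274 stood at 0.385, 0.359 and 0.382 CPM with NSI and at 1.43, 1.43 and 1.68 CPM with siFOXA1. The VCaP groups did not overlap either, and the mean rose from 0.375 ± 0.0145 to 1.51 ± 0.142 CPM (SD, n = 3), a ratio of 4.03. The log2 fold change was 2.00 (SE 0.17, 95% interval 1.61 to 2.40, adjusted p = 1.76e-05), ranked 608 among 22925 genes. The control levels of the lines were thus close to each other, and the PC3 rise exceeded the VCaP rise: the VCaP effect minus the PC3 effect was -2.24 (SE 0.27, 95% interval -2.82 to -1.65, adjusted p = 2.77e-05). No stretch of 50 bases of CD274 transcripts occurred in another gene's transcripts.

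PDCD1LG2 encodes PD-L2, the second PD-1 ligand, and is a neighbour of CD274 on chromosome 9 (5510570 to 5571254, plus strand, ENSG00000197646.7_2). It was near 0 in PC3 controls, with 0, 0.0653 and 0.0807 CPM, and reached 0.682, 0.562 and 0.560 CPM with siFOXA1. Every siFOXA1 library was above every control, but the deposited counts behind the control values were 0.5, 9 and 15, and those with siFOXA1 113, 70.5 and 95.5. The controls alone would not have passed the filter on low counts, so the gene was tested only through its siFOXA1 libraries. The rise was 3.57 on the log2 scale (SE 0.58, 95% interval 2.26 to 4.88, adjusted p = 0.00285), with a standard error larger than that of any other member. The estimate was 3.01 without NSI replicate 1 and 4.22 without NSI replicate 3, and it was called in each case. In VCaP, PDCD1LG2 had 0 counts in all 6 libraries, which by the limit of 3 counts allows up to 0.0521 to 0.0598 CPM in a library (counting error only). A difference between the lines could not be estimated for it.

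CD276 encodes B7-H3, a member of the B7 family that is abundant on many carcinomas and whose receptor on T cells is not settled. It lies on chromosome 15 at 73976554 to 74006859, plus strand (ENSG00000103855.17_2). In VCaP it stood at 216, 185 and 218 CPM with NSI and at 151, 154 and 140 CPM with siFOXA1. All 3 VCaP siFOXA1 libraries were below all controls, and CD276 fell from 206 ± 18.4 to 148 ± 7.27 CPM (SD, n = 3; log2 fold change -0.48, SE 0.08, adjusted p = 0.00103). In PC3 it stood at 61.5, 68.1 and 58.4 CPM with NSI and at 51.8, 51.2 and 57.4 CPM with siFOXA1. The PC3 groups did not overlap, though the highest siFOXA1 library was close to the lowest control, and the log2 difference of -0.23 did not pass the test (SE 0.09, 95% interval -0.44 to -0.02, adjusted p = 0.102). The VCaP effect minus the PC3 effect was -0.23 (95% interval -0.51 to 0.05, adjusted p = 0.239), so a difference between the lines was not shown.

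CD47 encodes the ligand of the macrophage receptor SIRPA, and it rose in both lines. It lies on chromosome 3 at 107761941 to 107809872, minus strand (ENSG00000196776.15_3). In PC3 it stood at 63.0, 72.8 and 62.1 CPM with NSI and at 115, 97.8 and 103 CPM with siFOXA1. In VCaP it stood at 40.2, 43.9 and 45.2 CPM with NSI and at 65.8, 65.8 and 73.4 CPM with siFOXA1. In each line every siFOXA1 library was above every control. The ratio of means was 1.60 in PC3 and 1.59 in VCaP. The log2 fold changes were 0.67 in PC3 (SE 0.10, 95% interval 0.44 to 0.91, adjusted p = 0.00211) and 0.67 in VCaP (SE 0.07, 95% interval 0.51 to 0.82, adjusted p = 5.30e-05). The interaction estimate was close to 0, with a 95% interval of -0.27 to 0.29 on the log2 scale, so a difference larger than that interval was not seen. Its sign turned with the scaling: it was 0.01 in the reported fit and -0.08 with library size alone.

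PVR, also called CD155 or the poliovirus receptor, is read by the inhibitory receptors TIGIT and CD96 and by the activating receptor CD226. It lies on chromosome 19 at 45147098 to 45166850, plus strand (ENSG00000073008.14_3). In VCaP it stood at 92.0, 90.2 and 104 CPM with NSI and at 72.7, 77.7 and 80.4 CPM with siFOXA1. The VCaP groups did not overlap, and PVR fell by 0.31 on the log2 scale (SE 0.07, 95% interval -0.47 to -0.15, adjusted p = 0.00674). In PC3 it stood at 129, 118 and 126 CPM with NSI and at 105, 95.4 and 112 CPM with siFOXA1. The PC3 groups did not overlap either, but the log2 difference of -0.25 missed the threshold (SE 0.09, 95% interval -0.46 to -0.05, adjusted p = 0.0691). It passed without NSI replicate 2 (log2 fold change -0.29, adjusted p = 0.0409) and with DESeq2 (log2 fold change -0.28, adjusted p = 0.0401). The difference between the lines was -0.04 (95% interval -0.32 to 0.24, adjusted p = 0.930). Of the 50-base windows of PVR transcripts, 19.1% also occur in another annotated gene, ENSG00000279095 for nearly all of them (18.3%), and its deposited counts were not whole in any of the 12 libraries.

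The NKG2D ligands MICA and MICB are neighbours in the MHC region of chromosome 6, at 31367561 to 31383092 and 31462658 to 31478901, both on the plus strand (ENSG00000204520.12_3 and ENSG00000204516.9_3). The 250 bases before each start are set side by side because these close relatives had different responses in PC3. They come from the RefSeq table of GRCh38.p14, at chr6:31403345-31403594 for MICA and chr6:31497895-31498144 for MICB, with capitals for bases that differ or are unpaired in their alignment.
MICA: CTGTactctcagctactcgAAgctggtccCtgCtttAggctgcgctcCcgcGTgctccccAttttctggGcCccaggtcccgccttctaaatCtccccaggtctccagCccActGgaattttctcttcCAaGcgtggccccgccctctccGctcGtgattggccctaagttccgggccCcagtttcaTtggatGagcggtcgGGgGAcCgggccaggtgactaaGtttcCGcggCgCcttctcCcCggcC
MICB: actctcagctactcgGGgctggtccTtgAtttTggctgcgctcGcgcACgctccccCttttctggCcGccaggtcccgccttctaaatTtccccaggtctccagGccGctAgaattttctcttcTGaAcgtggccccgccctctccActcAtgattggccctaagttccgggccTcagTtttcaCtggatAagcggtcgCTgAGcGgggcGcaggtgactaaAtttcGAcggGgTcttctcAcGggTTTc
The alignment paired 245 bases, of which 210 were identical, an identity of 85.7%.

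MICB rose in PC3 and fell in VCaP. In PC3 it stood at 5.04, 6.86 and 5.73 CPM with NSI and at 9.91, 10.2 and 11.6 CPM with siFOXA1. The PC3 groups were well separated, and the mean rose from 5.88 ± 0.920 to 10.6 ± 0.896 CPM (SD, n = 3; log2 fold change 0.85, SE 0.13, 95% interval 0.54 to 1.16, adjusted p = 0.00262). In VCaP it stood at 1.08, 0.777 and 1.36 CPM with NSI and at 0.794, 0.676 and 0.571 CPM with siFOXA1. The VCaP groups overlapped, since the highest siFOXA1 library was just above the lowest control. The fall in VCaP was -0.66 on the log2 scale (SE 0.24, 95% interval -1.20 to -0.13, adjusted p = 0.0461), on 173 summed counts with NSI and 104 with siFOXA1. That call was lost with DESeq2 (adjusted p = 0.0834), with upper-quartile factors (0.0582), without NSI replicate 1 (0.0885) or 3 (0.148), and without siFOXA1 replicate 1 (0.0514), 2 (0.107) or 3 (0.127). The log2 fold change was -0.45 without NSI replicate 3. The VCaP effect minus the PC3 effect was -1.50 (SE 0.27, 95% interval -2.07 to -0.92, adjusted p = 0.000871), and it was called in all 21 alternatives.

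MICA, the closest relative of MICB here, did not pass the test in either line. In PC3 it stood at 16.6, 21.0 and 16.6 CPM with NSI and at 16.8, 18.6 and 18.3 CPM with siFOXA1. Those groups overlapped, and the log2 difference of -0.01 had a 95% interval of -0.28 to 0.25 (SE 0.12, adjusted p = 0.941). In VCaP it stood at 1.91, 1.75 and 1.27 CPM with NSI and at 1.31, 1.25 and 0.952 CPM with siFOXA1. Here too the groups overlapped, through a single control library (log2 difference -0.48, SE 0.20, adjusted p = 0.0754). Without that control, NSI replicate 3, the difference was -0.65 and passed the test (adjusted p = 0.0193), and with no filter on low counts it passed as well (adjusted p = 0.0491). The difference between the lines was -0.45 (SE 0.22, 95% interval -0.91 to 0.01, adjusted p = 0.162), and it was called without PC3 NSI replicate 2 (-0.60, adjusted p = 0.0466). MICA shares 62 exon bases, 2.60% of its length, with HCP5 on the same strand, and the mean count of HCP5 was 176.1 with NSI and 2313 with siFOXA1 in PC3. The part of HCP5 reads in the MICA counts was not tested.

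ULBP2, an NKG2D ligand of the ULBP and RAET1 family, rose in PC3. It lies apart from the MHC on chromosome 6, at 150263136 to 150270371, plus strand (ENSG00000131015.4_2). In PC3 it stood at 5.86, 7.20 and 5.87 CPM with NSI and at 7.85, 9.82 and 8.94 CPM with siFOXA1. All 3 siFOXA1 libraries were above all controls (log2 fold change 0.49, SE 0.13, 95% interval 0.20 to 0.79, adjusted p = 0.0238). The call was lost without NSI replicate 1 (adjusted p = 0.0775) or 3 (0.0941) and without siFOXA1 replicate 2 (0.0653) or 3 (0.0703). In VCaP it stood at 2.16, 1.79 and 1.70 CPM with NSI and at 2.14, 1.79 and 2.23 CPM with siFOXA1. These groups overlapped, and the log2 difference of 0.13 did not pass the test (SE 0.15, 95% interval -0.21 to 0.47, adjusted p = 0.526). The VCaP effect minus the PC3 effect was -0.35 (95% interval -0.77 to 0.08, adjusted p = 0.248). ULBP2 is the member whose reads are most easily shared, as 32.6% of its 50-base windows also occur in other genes, 29.7% in RAET1L and 11.7% in RAET1G. RAET1L rose in PC3 as well (log2 fold change 0.88, adjusted p = 0.00338), and how many reads the 2 genes share was not tested.

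**Figure D2:**
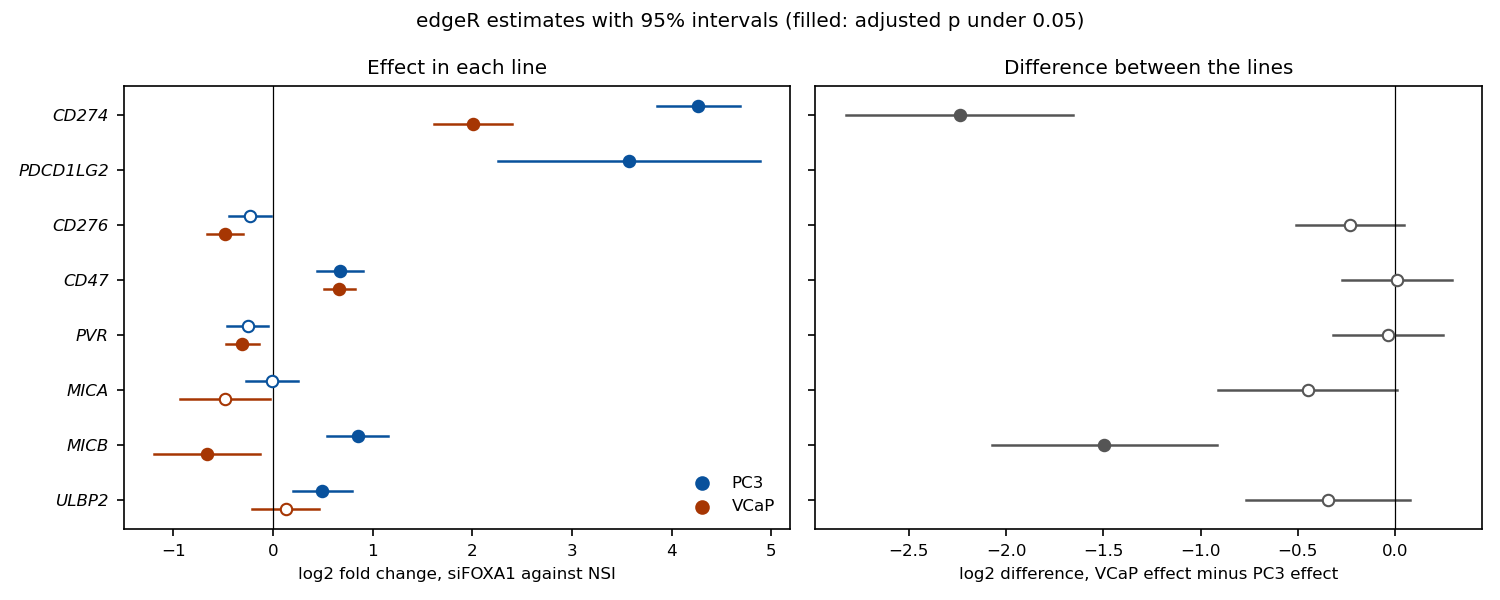
Log2 fold change of siFOXA1 against NSI for each ligand gene in PC3 and VCaP (left) and the VCaP effect minus the PC3 effect (right); points are edgeR estimates, lines are 95% intervals and filled points have an adjusted p under 0.05. CD274 is at 4.27 in PC3 and 2.00 in VCaP, CD47 is at 0.67 in both, and MICB is at 0.85 and -0.66.

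In PC3, 7 of the 8 genes had groups that did not overlap, 5 above and 2 below the controls, where 44.4% of all tested genes had such groups (23.9% above and 20.5% below). Of the 5 above, PDCD1LG2 was tested only through its siFOXA1 libraries, so its separation is no independent result. In VCaP, 4 of 7 had them, 2 above and 2 below, where the background was 55.9% (27.9% above and 28.0% below). CD276 and PVR were the members whose groups were apart in PC3 without a call. MICA was the member whose groups overlapped in both lines.

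The order of the levels was compared per length of the annotated exons, in CPM per kilobase, within each group. In PC3 controls PVR was highest, at 35.3 ± 1.64 CPM per kilobase (SD, n = 3), followed by CD276 at 14.1 ± 1.12 and CD47 at 12.5 ± 1.13, whose libraries overlapped. MICA (7.58 ± 1.06), ULBP2 (4.68 ± 0.571) and MICB (2.27 ± 0.355) came next, and the PD-1 ligands CD274 (0.104 ± 0.0228) and PDCD1LG2 (0.0206 ± 0.0181) were lowest. With siFOXA1 in PC3, CD47 (19.9) stood above CD276 (12.0) in every library. CD274, at 1.99 CPM per kilobase, was still below MICB (4.09) there, and MICA (7.51) and ULBP2 (6.58) overlapped. In VCaP controls CD276 led at 46.3, before PVR at 27.1 and CD47 at 8.15 CPM per kilobase, and all 3 NKG2D ligands were between 0.413 and 1.40. None of these VCaP neighbours overlapped. With siFOXA1 in VCaP, CD276 (33.2), PVR (21.9) and CD47 (12.9) kept their places, and CD274 at 0.410 overlapped MICA at 0.491 and stood above MICB at 0.263. CD274 thus remained among the lower members of the 8 in both lines after its rise.

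**Figure D3:**
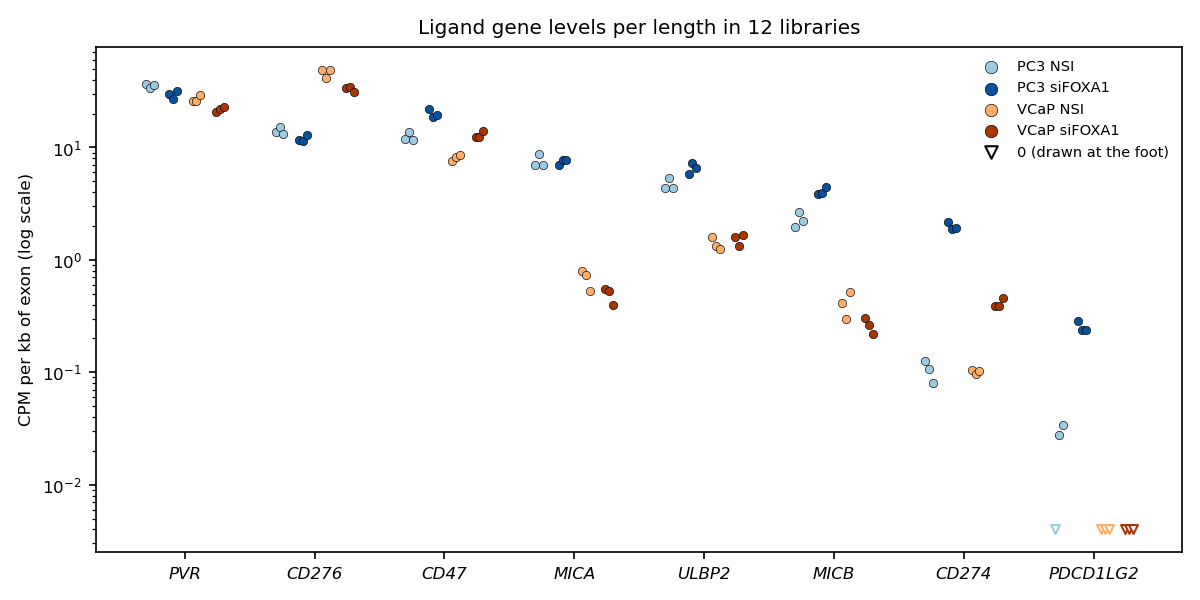
Level per exon length of each ligand gene, in CPM per kilobase on a log axis; each point is 1 of the 12 libraries, coloured by group, and open triangles at the foot are libraries with no count. PVR leads in PC3 and CD276 in VCaP, and the mean of CD274 is 0.104 in PC3 controls and 1.99 after silencing, against 0.102 and 0.410 in VCaP.

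For each member tested in both lines, the genes with the most similar pattern were found over the 12 libraries. Likeness was the root mean square difference of log2 CPM after the NSI mean of the line was subtracted, among genes that averaged 5 CPM or more in PC3 and in VCaP. The values are descriptions, and all genes share the same libraries. The 2 genes most like CD274 were TRANK1 (difference 0.55, log2 fold change 3.51 in PC3 and 1.32 in VCaP) and OAS1 (0.62, log2 fold change 3.16 and 1.55), the latter an enzyme of the interferon response to viral RNA. The genes most like CD47 were PI4K2B (0.11) and FUCA1 (0.12), a lipid kinase and a lysosomal fucosidase. MICB, with its opposite signs, was most like ENG (0.15, log2 fold change 0.91 in PC3 and -0.64 in VCaP), a coreceptor of the TGF-beta family, and MAGEH1 (0.19, log2 fold change 0.75 and -0.54). CD276 was matched by RTCB and CWF19L1 (both 0.05), PVR by DHX9 and UBE4B (both 0.04), MICA by TRIM41 (0.12) and CLDN15 (0.13), and ULBP2 by CTSH (0.09) and KRT8 (0.11). The distance to the nearest gene was largest for CD274, which also had the largest fold changes of the members compared. In VCaP its means of 0.375 and 1.51 CPM were below the 5 CPM asked of candidates. Its distance is therefore not read as a distinct pattern.

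Of the genes that carry the interferon signal toward CD274, 7 of 14 tested rose and 2 fell in PC3 (median log2 fold change 0.52, background shares 15.0% and 12.1%). IRF1, which binds the CD274 promoter in textbook accounts, went from 19.0 ± 2.87 to 104 ± 3.02 CPM (SD, n = 3; log2 fold change 2.45, adjusted p = 5.04e-06). STAT2, a partner in the type I interferon complex, rose by 2.49 on the log2 scale (adjusted p = 1.08e-05), whereas the interferon-gamma receptor chains IFNGR1 (-0.32, adjusted p = 0.0220) and IFNGR2 (-0.55, adjusted p = 0.00156) fell. The IFNGR1 call in PC3 was lost without NSI replicate 1 or 3 and without siFOXA1 replicate 1 or 3. In VCaP, 8 of 15 rose and 4 fell (median 0.33, background shares 22.5% and 23.3%), and IRF1 was among those that fell, from 7.67 ± 0.586 to 5.65 ± 0.616 CPM (log2 fold change -0.44, adjusted p = 0.00904). IFNGR1 rose in VCaP (0.95, adjusted p = 3.14e-06), as did IFNAR2 (0.59, adjusted p = 0.000135), while JAK1 fell by 0.24 on the log2 scale (adjusted p = 0.00540). Of the 7 that rose in PC3, 4 also rose in VCaP and are named after their values were seen. They were the kinase JAK2 (log2 fold change 0.90 in PC3 and 0.58 in VCaP), IRF2 (0.95 and 0.22), IRF9 (1.21 and 0.63), which shares 93.5% of its length with genes on its own strand, and the feedback inhibitor SOCS1 (3.30 and 1.55). SOCS1 passed the filter on low counts in VCaP only through its siFOXA1 libraries. The share of all genes higher in PC3 that also rose in VCaP is not given here. IRF1 rose in PC3 and fell in VCaP, while CD274 rose in both lines. The VCaP effect minus the PC3 effect was -2.87 for IRF1 (adjusted p = 1.56e-08) and -2.48 for STAT2 (adjusted p = 2.18e-07). IRF1 overlaps other-strand exons over 15.3% of its length, and PC3 counts ignored strand, while IFNAR2 shares 46.8% of its length with genes on its own strand. The part of these factors in the CD274 values was not tested.

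**Figure D4:**
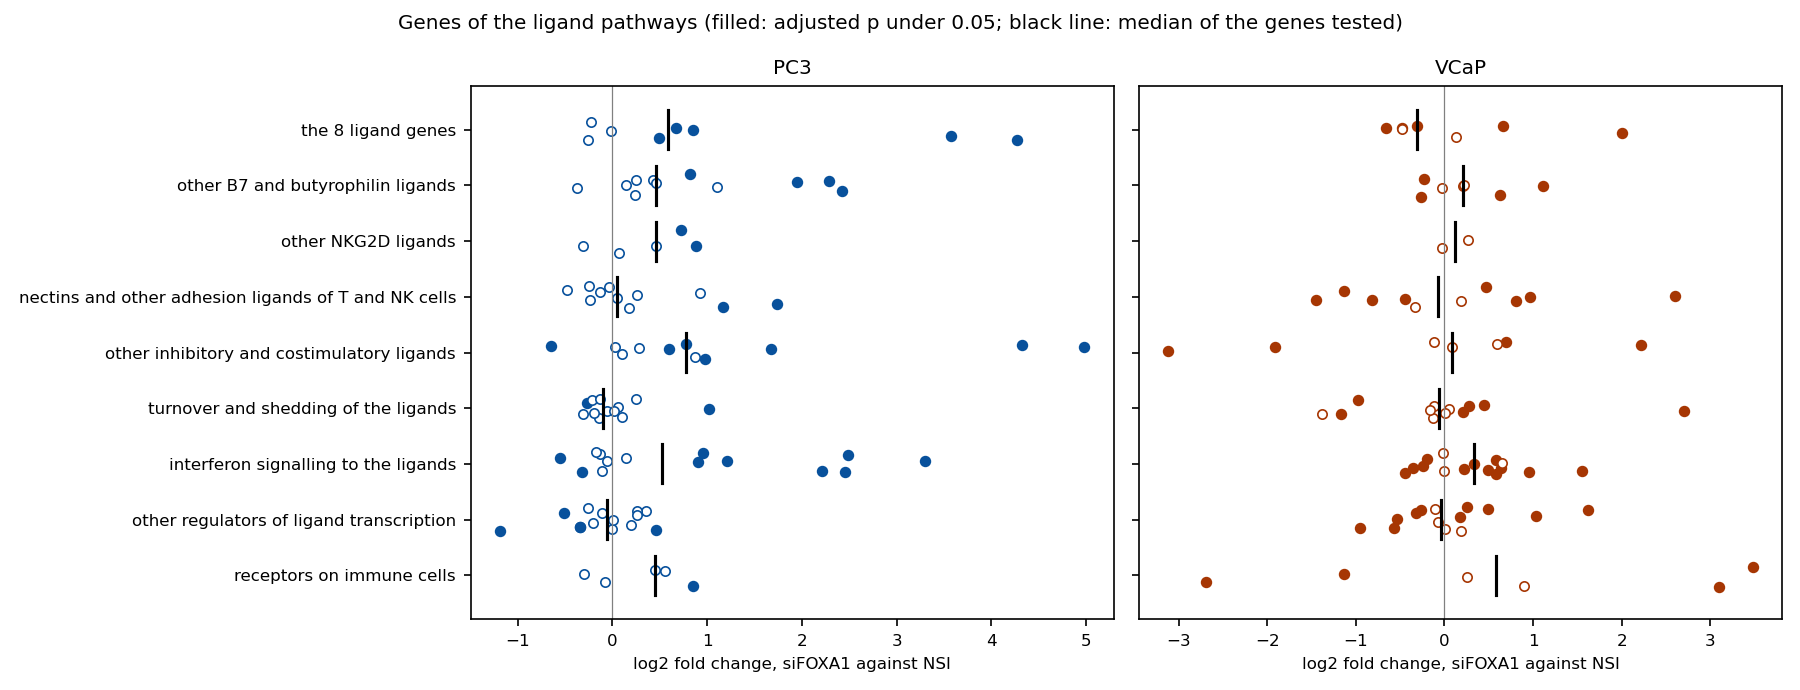
Log2 fold changes of siFOXA1 against NSI for the 8 ligand genes and the genes of 8 context lists in PC3 (left) and VCaP (right); each point is a tested gene, filled where its adjusted p is under 0.05, and black lines are list medians. The 8 ligand genes have medians of 0.58 in PC3 and -0.31 in VCaP, and the interferon signalling genes of 0.52 and 0.33.

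The other families around these ligands were described by the same tests, and their counts read against the background shares of 27.0% called in PC3 and 45.8% in VCaP. Of the other B7 and butyrophilin ligands, 4 of 11 rose in PC3 (median 0.46) and none fell by edgeR, at an unadjusted p under 0.05 or by DESeq2. The smallest adjusted p-values were those of BTN3A1 (2.42, adjusted p = 4.06e-06) and BTN3A3 (2.28, adjusted p = 2.32e-06), which take part in the sensing of phosphoantigens by gamma-delta T cells. In VCaP 2 of 7 rose and 2 fell (median 0.21): ICOSLG (1.12, adjusted p = 0.000210) and NCR3LG1, the ligand of NKp30 (0.62, adjusted p = 0.000529), were higher, and BTN3A3 (-0.27, adjusted p = 0.0400) and BTN3A1 (-0.23, adjusted p = 0.0469) were lower. The BTN3A calls in VCaP were each lost in 10 of 16 alternatives, among them the fits without NSI replicate 1, NSI replicate 2 or siFOXA1 replicate 2, which left 2 genes of this family called. ICOSLG shares 40.9% of its length with a gene on the same strand. Of the other NKG2D ligands, RAET1L and RAET1E (0.72, adjusted p = 0.00509) rose in PC3 among 5 tested (median 0.46), and 4 of the 5 passed without NSI replicate 2. Neither of the 2 tested in VCaP passed by edgeR (median 0.12), at an unadjusted p under 0.05 or by DESeq2, although 1 passed without siFOXA1 replicate 3. The levels of these 5 genes summed to 36.7 to 42.7 CPM in PC3 controls and to 0.990 to 1.32 CPM in VCaP controls. With siFOXA1 the sums were 35.1 to 40.7 CPM in PC3 and 1.26 to 1.73 CPM in VCaP.

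Among the nectins, which are relatives of PVR, and other adhesion ligands, 2 of 11 rose in PC3 (median 0.04) and none fell by edgeR, with 1 lower at an unadjusted p under 0.05 and 1 by DESeq2. In VCaP 4 of 10 rose and 4 fell (median -0.07). NECTIN1 (-1.13, adjusted p = 6.19e-06), NECTIN2 (-0.81, adjusted p = 3.05e-05) and NECTIN3 (-1.45, adjusted p = 7.91e-06) fell in VCaP, where PVR fell as well. NECTIN4 rose there (0.47, adjusted p = 0.00317). The intercellular adhesion molecule ICAM1 rose on the log2 scale in PC3 by 1.16 (adjusted p = 3.87e-05) and in VCaP by 0.97 (adjusted p = 2.62e-05), and so did CEACAM1, a ligand of TIM-3, by 1.74 (adjusted p = 5.52e-05) and 2.61 (adjusted p = 3.67e-05). ICAM1 overlaps other-strand exons over 26.9% of its length. In VCaP, CEACAM1 passed the filter on low counts only through its siFOXA1 libraries. Of the other inhibitory and costimulatory ligands, 6 of 11 rose and 1 fell in PC3 (median 0.78). LGALS9, the galectin that binds TIM-3, went from 0.467 to 14.7 CPM (log2 fold change 4.98, adjusted p = 5.01e-07), and IDO1, the tryptophan-degrading enzyme, from 2.53 to 50.6 CPM (4.32, adjusted p = 5.01e-07), while the ectonucleotidase ENTPD1 fell (-0.65, adjusted p = 0.00510). In VCaP 2 of 7 rose, the adenosine-producing NT5E (2.22, adjusted p = 6.42e-06) and HLA-E, a ligand of the NK receptor NKG2A (0.70, adjusted p = 0.00465), and 2 fell, the LAG-3 ligand FGL1 (-1.92, adjusted p = 0.000128) and CD200 (-3.12, adjusted p = 0.000549), with a median of 0.09. CD200 passed the filter on low counts only through its controls. HLA-E was among those that rose in PC3 too, from 127 to 405 CPM (log2 fold change 1.67, adjusted p = 1.5e-05).

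Of 12 genes that set the turnover, shedding or binding of the ligands, 2 were called in PC3 and 6 in VCaP, near or below the background shares of 27.0% and 45.8%. CMTM6, which keeps PD-L1 protein from degradation, was at 172 ± 9.32 CPM in VCaP controls and fell to 87.2 ± 11.6 CPM (SD, n = 3; -0.98, adjusted p = 3.97e-05), as did its relative CMTM4 (-1.17, adjusted p = 1.51e-06). CD274 RNA rose in those same libraries, and protein was not measured. In VCaP, THBS1, a secreted ligand of CD47, rose from 1059 to 6889 CPM (adjusted p = 9.07e-07), and ADAM17, a protease that can shed MICA and MICB, rose by 0.21 on the log2 scale (adjusted p = 0.0114), a call lost without NSI replicate 1 or siFOXA1 replicate 1 or 2 and with library size alone. In PC3, MMP14 rose (1.01, adjusted p = 6.79e-05) and SPOP, an adaptor for degradation of PD-L1, fell by 0.27 (adjusted p = 0.0352), a call lost in 7 alternatives. In all, 1 of these genes rose and 1 fell in PC3 (median -0.10), and 4 rose and 2 fell in VCaP (median -0.06). The fall of SPOP was lost without any 1 PC3 library other than NSI replicate 2, and 3 of the 6 VCaP calls were lost without VCaP NSI replicate 1. Of 14 other regulators of ligand transcription, 1 rose and 4 fell in PC3 (median -0.06, background shares 15.0% and 12.1%), and 5 rose and 5 fell in VCaP (median -0.04, background shares 22.5% and 23.3%). The 5 PC3 calls became 9 without NSI replicate 2, 3 without NSI replicate 3, and 2 without siFOXA1 replicate 1 or 3. EPAS1 rose in both lines (0.46, adjusted p = 0.0178, and 1.62, adjusted p = 1.74e-06), though its PC3 call was lost without siFOXA1 replicate 1 or 3. MYC (-1.19, adjusted p = 3.87e-05) and NFKB1 (-0.52, adjusted p = 0.00296) fell in PC3, HIF1A rose in VCaP (1.03, adjusted p = 3.99e-06), and the cell cycle genes CHEK1 (-0.95, adjusted p = 3.07e-06) and E2F1 (-0.54, adjusted p = 0.000246) fell in VCaP.

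Receptors of the ligands, known from immune cells, were mostly near 0, but SIRPA, the CD47 receptor, was not so in PC3. Its deposited counts there were 6118.92, 5557.25 and 7307.87 in controls and 6268.5, 4623.25 and 6628.54 after silencing. Its log2 fold change in PC3 was -0.08 and was not called. The 12 receptor genes summed to 40.6 to 42.0 CPM in PC3 controls, where 1 of them exceeded 1 CPM in any library. Of 12 receptor genes, 5 could be tested in PC3, where CD226 rose (0.85, adjusted p = 0.0183) to a mean of 0.657 CPM (median of the list 0.45), a call lost when NSI replicate 3 or siFOXA1 replicate 1 or 3 was left out. In VCaP 6 could be tested (median 0.58). KLRK1, which encodes NKG2D itself, rose there from 0.178 to 1.53 CPM (3.10, adjusted p = 1.19e-05), but it shares 55.9% of its length with genes on the same strand. It passed the filter on low counts only through its siFOXA1 libraries. KLRC1, which encodes NKG2A, also passed that filter only through its siFOXA1 libraries, with deposited counts of 2, 1 and 2.75 in VCaP controls and 16.86, 20.74 and 29.5 after silencing (adjusted p = 0.000141). CRTAM (-2.69, adjusted p = 5.32e-05) and SIRPA, the CD47 receptor (-1.14, adjusted p = 0.00149), fell in VCaP. CRTAM passed the filter on low counts only through its controls. The 12 immune cell markers summed to 0.493 to 0.509 CPM with NSI and 0.760 to 0.932 CPM with siFOXA1 in PC3, and to 6.62 to 7.99 and 8.73 to 9.44 CPM in VCaP, where KLRD1 made up 6.06 CPM of the control mean. In PC3, PTPRC (2.20, adjusted p = 0.0312) and CD14 (0.77, adjusted p = 0.0450) rose among 4 tested (median 1.02), each at means below 1 CPM. Neither was called without NSI replicate 2 or 3 or without siFOXA1 replicate 1, 2 or 3, and 1 of them without NSI replicate 1. PTPRC passed the filter on low counts only through its siFOXA1 libraries. In VCaP CD14 rose among 3 tested (1.97, adjusted p = 2.07e-05; median 0.06). With siFOXA1, 3 of the 12 markers were at 0 in all PC3 libraries and 4 in all VCaP libraries. The part of these markers in the ligand values was not tested.

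**Figure D5:**
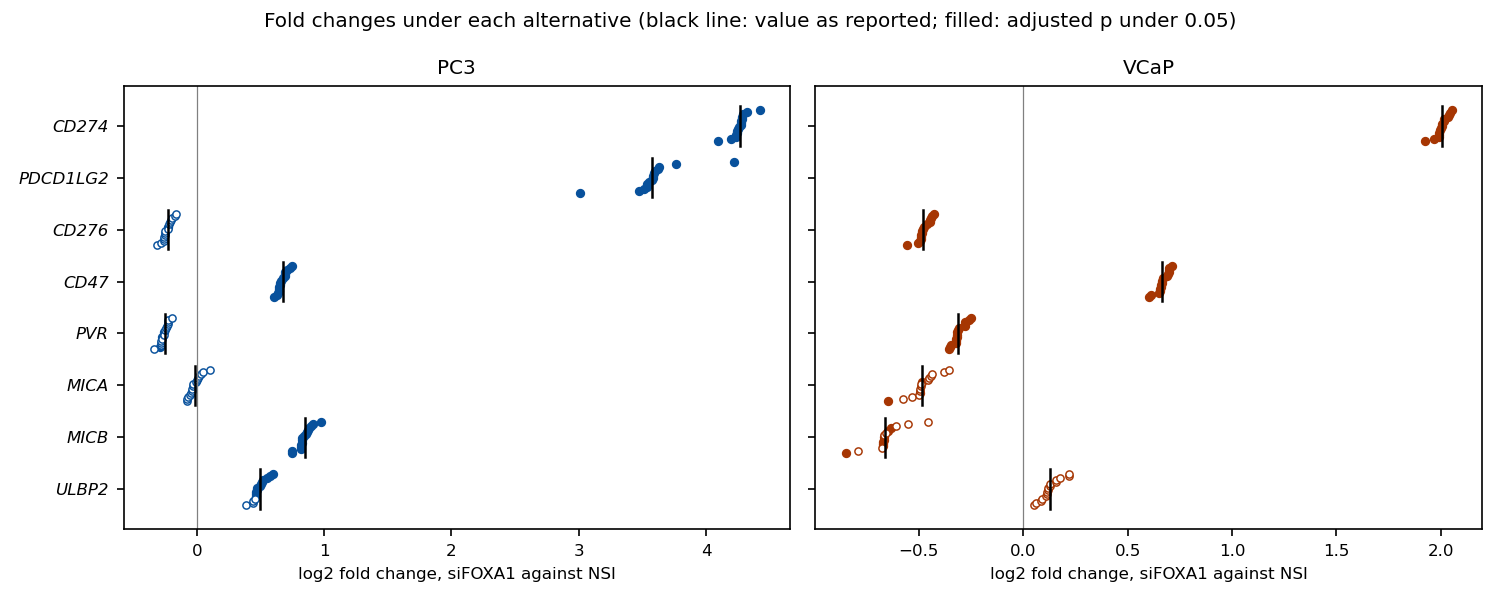
Log2 fold change of siFOXA1 against NSI of each ligand gene in PC3 (left) and VCaP (right), with a point for each alternative processing, filled where the adjusted p is under 0.05, and a black line at the reported value. CD274 stays between 4.10 and 4.42 in PC3 and between 1.92 and 2.05 in VCaP, while the points of MICA in PC3 lie on both sides of 0.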

How the data were processed

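RNA of 12 libraries was analysed, 3 for each siRNA in each line, grouped by the sample titles. Per the file headers, the authors made the deposited estimated counts (expected counts, which need not be whole) with featureCounts 2.0.0 over exons of GENCODE v28lift37 (basic set, GRCh37), with both ends mapped and reads of several places or genes divided as fractions. Per the file headers, strand was ignored for PC3 and reverse-strand counting was used for VCaP. The submitters' processing notes name STAR 2.7.3a. Between 54.8% and 75.2% of the nonzero values per library were not whole numbers, and all were rounded.

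Each line was fitted on its own with edgeR 4.0.16 in R 4.3.3 (filterByExpr, then TMM factors, quasi-likelihood test, two-sided), and the difference between the lines as the interaction over 12 libraries. Standard errors are the log2 fold change divided by the square root of F, and intervals are at 95%. Adjustment ran over all genes tested (26435, 22925 and 30425). Totals per library, in the report, set the precision, and biological coefficients of variation were 15.0% (PC3), 9.90% (VCaP) and 12.8% (all). Counting limits (3 counts for a count of 0) cover counting error only. Replicates differed by more than sampling noise (chi-square per degree of freedom 9.80 to 141), so none was a copy.

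The members, the lists and the tests were chosen with earlier results of these data known. Named were the 8 members, FOXA1, up to 2 genes higher and 2 lower per list and line by adjusted p, and the 2 likest genes of each member. HCP5 and the other genes named beside a member for overlap were named for their shared bases, and the line markers ERG and VIM and the immune marker KLRD1 for their levels, after their values were seen. NECTIN2 and NECTIN4 were named to complete the nectins, and ULBP1 for its lower level in PC3, also after their values were seen. CD24, on the list of other inhibitory ligands, was not analysed here, and 2 line markers are not reported here. Sequences came from the RefSeq promoter table, and shared 50-base windows from GENCODE v44lift37 transcripts. Alternatives were DESeq2 1.42.0, other scalings and filters, unrounded counts, a replicate block, 1 fit of all libraries and each library left out. On simulated data the fits recovered 97.9% of 4-fold changes in PC3 (25912 genes), 100% in VCaP (22499) and 78.3% of such interactions (27925), and 69.1%, 79.0% and 63.3% of 2-fold changes. False calls numbered 7, 4 and 11. The simulated counts were drawn independently around 1 pooled mean per gene, with no shared replicate effect and no difference of level between the lines. The rates may therefore not hold for the deposited counts.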

Additional observations from a re-analysis of the deposited data

Results flagged for a closer look

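The responses below differed between PC3 and VCaP by the interaction test of edgeR (VCaP effect minus PC3 effect, on the log2 scale, adjusted p under 0.05), and they are given as values. Groups of 3 libraries are too small for a test of single outlying libraries, so none was made. The line, the dose, the medium, the kit and the use of strand cannot be told apart in any of them.

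Among the ligand genes, the difference was -2.24 for CD274, which rose more in PC3, and -1.50 for MICB, which rose in PC3 and fell in VCaP. For FOXA1 itself, the silenced gene, it was -1.93.

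Among other ligands, the VCaP effect was below the PC3 effect for BTN3A1 (-2.64), BTN3A3 (-2.53), NECTIN1 (-1.07), NECTIN3 (-1.47), HLA-E (-0.95) and LGALS9 (-4.90). It was above the PC3 effect for ICOSLG (0.90), NT5E (2.14) and CEACAM1 (0.89). CEACAM1 rose in both lines, and the call of its difference was lost in 15 of 21 alternatives. HLA-E rose in both lines as well, more in PC3. LGALS9 passed the filter on low counts in PC3 and not in VCaP.

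Of the genes for turnover and shedding, MMP14 differed by -2.39, THBS1 by 2.71, CMTM4 by -1.01 and CMTM6 by -1.21. In VCaP, MMP14 had only 47 summed counts with NSI and 17 with siFOXA1, its groups overlapped, and its change was not called (adjusted p = 0.0612). In interferon signalling, the difference was -2.87 for IRF1 and -2.48 for STAT2, and it had the other sign for the receptor chains IFNGR1 (1.30), IFNGR2 (0.91) and IFNAR2 (0.71). Among other regulators, the VCaP effect was above the PC3 effect for EPAS1 (1.18), MYC (1.13), NFKB1 (1.03) and HIF1A (1.26) and below it for CHEK1 (-1.19) and E2F1 (-0.87); these are differences of response, not of level.

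Of the receptors and markers, KLRK1 differed by 3.42, CRTAM by -3.69, SIRPA by -1.04, PTPRC by -4.62 and CD14 by 1.22, most of them at levels of a few CPM or less. Of the line markers, EPCAM differed by 0.50 and VIM by 1.27. CRTAM was tested in VCaP alone and PTPRC in PC3 alone in the fits by line.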

How the results depend on the processing

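Of 1948 alternative values of 111 log2 changes, 1829 kept their direction and side of the threshold, 90 lost a call, 9 gained one and 20 turned sign. Calls of CD274, PDCD1LG2, CD47 and MICB in PC3, of CD274, CD276, CD47 and PVR in VCaP, and of the CD274 and MICB differences held wherever the gene was tested. Leaving out 1 library gave 3945 (without siFOXA1 replicate 1) to 7592 genes called in PC3. A filter of a mean of at least 1 CPM left 3 members called in VCaP, since CD274 and MICB did not pass it. MICA in PC3, near 0, turned to 0.0158 with upper-quartile factors, 0.0448 with library size alone, 0.00566 with the filter at 1 CPM, and lay between -0.0750 and 0.105 with 1 library left out. The CD47 difference between the lines turned to -0.0258 with DESeq2, -0.0257 with DESeq2 size factors in edgeR, -0.00443 with upper-quartile factors, -0.0834 with library size alone, -0.00467 with no filter, -0.00466 with TMM before the filter (added after seeing the data), -0.0329 with the filter at 1 CPM, and lay between -0.133 and 0.0499 with 1 library left out. The PVR difference lay between -0.186 and 0.0341 with 1 library left out. The cause was not tested. Same-numbered libraries deviated from their group means together, with r of 0.134, 0.284 and 0.0864 in PC3 and 0.0617, 0.0336 and 0.269 in VCaP. The mean r with other numbers was lower each time, at -0.0505, -0.167 and -0.0302 in PC3 and -0.0189, -0.00694 and -0.153 in VCaP. Not every library correlated best with its own number. The labels do not say that the numbers pair the libraries, so the reported fits left the pairing out. Whether the numbers mark a shared batch was not tested. With the replicate block, 11297 genes were called in PC3 (5734 higher, 5563 lower) in place of 7149, 11482 in VCaP and 8812 for the difference. The block added calls for CD276 (adjusted p = 0.0374) and PVR (adjusted p = 0.00754) in PC3, for MICA in VCaP (adjusted p = 0.0210) and for the MICA difference (adjusted p = 0.0409). Depth limits PDCD1LG2 in PC3 and CD274, MICA, MICB and ULBP2 in VCaP, with 24 to 315 summed counts in a group.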
